A study of Mus musculus with 2 samples.

Results

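The 6 windows described here are 1 Mb stretches of the mouse genome that are crowded both with protein-coding genes and with H3K9me3 peaks. Both chromosome 10 windows adjoin (chr10:80000001-82000000), and the others are chr7:19000001-20000000, chr11:120000001-121000000, chr15:76000001-77000000 and chr5:114000001-115000000 (GRCm38, mm10). A peak of the deposited list was a member when its midpoint lay in a window, which gave 625 members of 40119 peaks. The windows were chosen by their measured numbers of peaks and genes, so those numbers and whatever follows from them are given as a description with no test. The rest of the list, against which they are set, is the 39347 other peaks on chromosomes 1 to 19, X and Y.

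Chromatin of intestinal stem cells was immunoprecipitated with an H3K9me3 antibody and sequenced as 1 library, and 1 control library is labelled input in one place and IgG in another. Stem cells with a high GFP and a low CD24 signal were taken by flow sorting out of the intestines of 12 pooled Lgr5-EGFP-IRES-creERT2;setdb1fl/fl mice on C57BL/6 at 8 weeks. In this line GFP and a tamoxifen-inducible Cre are driven from the Lgr5 gene, which marks stem cells of the crypt base, and Setdb1 encodes an H3K9 methyltransferase. Both libraries share these alleles, and the labels do not say whether Setdb1 had been deleted. There is no replicate and no second genotype, so intervals cover counting error alone and no difference between conditions could be examined. A peak list holds no expression values, so the labelled cell type was not checked against markers.

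H3K9me3 is written by methyltransferases such as Setdb1 and the Suv39h enzymes and is read by heterochromatin protein 1. It is best known from pericentromeric repeats, endogenous retroviruses, imprinted loci and clusters of zinc finger genes, where it accompanies silencing. Gene-dense chromatin is, as background, mostly open and transcribed, and the position of the mark against gene ends and gene bodies is therefore the natural way to describe it there.

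Most peaks in these windows lay on genes, and some covered a whole promoter, of which examples are shown to give the sequence under such a peak. For each chromosome whose genes matched the promoter table, the promoter shown is the one wholly inside the peak with most tags. They are the 250 bases before a start given in that table, all on the minus strand, from RefSeq GRCm38.p6, written 5′ to 3′ with CG dinucleotides in capitals.

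Sirt6: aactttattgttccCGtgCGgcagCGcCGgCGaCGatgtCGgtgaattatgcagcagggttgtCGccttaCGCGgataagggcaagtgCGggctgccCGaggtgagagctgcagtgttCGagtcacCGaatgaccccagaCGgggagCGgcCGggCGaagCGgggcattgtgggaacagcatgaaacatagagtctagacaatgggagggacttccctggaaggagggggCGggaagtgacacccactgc
Bhmg1: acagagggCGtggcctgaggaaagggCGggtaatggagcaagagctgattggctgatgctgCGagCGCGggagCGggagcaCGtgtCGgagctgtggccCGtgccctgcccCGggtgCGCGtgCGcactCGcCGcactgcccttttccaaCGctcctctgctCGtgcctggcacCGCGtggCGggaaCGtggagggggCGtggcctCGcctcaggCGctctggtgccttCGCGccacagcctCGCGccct
Aatk: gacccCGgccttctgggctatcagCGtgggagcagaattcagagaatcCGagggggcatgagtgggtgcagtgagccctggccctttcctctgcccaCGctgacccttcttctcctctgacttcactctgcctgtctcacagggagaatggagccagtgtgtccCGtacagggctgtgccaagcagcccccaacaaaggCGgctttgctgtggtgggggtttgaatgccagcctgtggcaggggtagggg
2610524H06Rik: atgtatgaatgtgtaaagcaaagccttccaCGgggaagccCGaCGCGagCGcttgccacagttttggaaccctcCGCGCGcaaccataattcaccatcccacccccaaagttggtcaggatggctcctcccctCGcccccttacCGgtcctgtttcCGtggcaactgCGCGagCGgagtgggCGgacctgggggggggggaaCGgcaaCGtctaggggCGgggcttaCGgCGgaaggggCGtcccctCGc

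The Sirt6 sequence (chr10:81627323-81627572) precedes a start inside the span of this histone deacetylase gene. It held 20 CG dinucleotides and lay in a peak of 115.8 normalized tags, 5826 bp wide. Of 21263 promoters in the table, 23.7% held at least as many CG. That of Bhmg1 (chr7:19118345-19118594), which overlaps the gene's span in part, held 28, a number that 9.83% of promoters reached, in a peak of 61.3 normalized tags and 1290 bp. The sequence at an internal start of Aatk, a kinase gene (chr11:120017155-120017404), held 6, which 62.2% of promoters reached, in a peak of 33.5 normalized tags. That of 2610524H06Rik (chr5:114823469-114823718) held 22, which 19.5% reached, in a peak of 31.4 normalized tags with 30 ChIP tags and 0.5 control tag. These 4 promoters thus held from 6 to 28 CG. A normalized tag count is the authors' depth-scaled number of ChIP tags in a peak, in which 1 tag is worth 1.048.

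The windows held from 84 to 130 peaks each. There were 126 peaks and 54 protein-coding genes in the first chromosome 10 window, and 130 peaks and 50 genes in the second. The chromosome 7 window had 101 peaks and 53 genes, that of chromosome 11 had 98 and 46, and that of chromosome 15 had 86 and 52. Chromosome 5 had 84 peaks but only 24 genes, which made 3.50 peaks per gene, against 1.65 to 2.60 in the other windows. Together this was 104 peaks per Mb, against 14.5 over the rest, and peaks covered 10.3% of the windows' base pairs, against 1.33% over the rest.

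**Figure D1:**
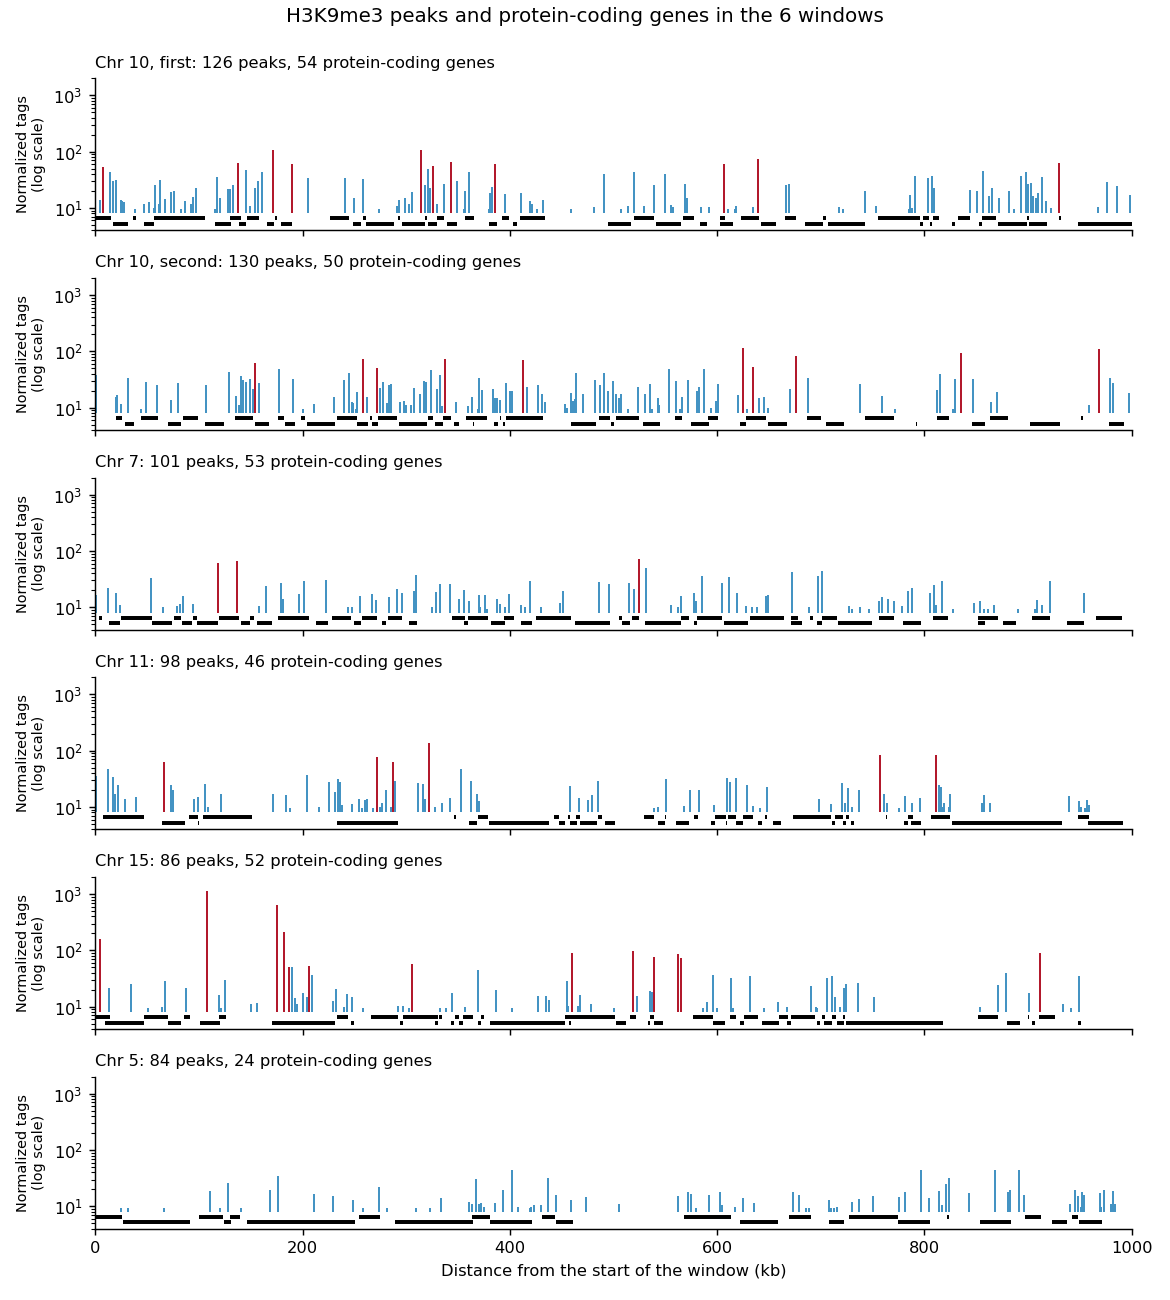
Every member peak drawn at its distance from the window's left edge (kb), with its normalized tags as height on a log scale (red at 50.8 or more, blue below), above black bars for the spans of the protein-coding genes of that window. The windows hold 126, 130, 101, 98, 86 and 84 peaks, and the tallest bar, 1114 normalized tags, is in the chromosome 15 window.

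Most members sat inside genes. Of the 625 members, 81.4% (exact Clopper-Pearson 95% interval 78.2 to 84.4) had their centre in a protein-coding gene, against 46.3% of the rest, with 46.8% over all peaks on the chromosomes as background. Protein-coding genes made up 68.9% of the windows' base pairs, against 37.8% of the rest. Per Mb of gene, the windows had 123 peaks, against 17.7 over the rest. Genes in the windows therefore carried, on average, more peaks for their length than genes elsewhere.

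Gene ends were the most crowded place. A gene end means here the first or last base of a gene's span, and 245 members, or 39.2% (35.4 to 43.2), had their centre within 2 kb of one, against 18.9% of the rest and 19.2% over all peaks. Another 310 members lay deeper inside genes and 70 lay outside genes and away from their ends. Density was 146 peaks per Mb (exact Poisson 95% interval 128 to 166) near ends in the windows, against 50.6 over the rest. In gene interiors it was 100.5 per Mb (89.6 to 112), against 12.9, and outside genes it was 56.6 (44.1 to 71.5), against 12.1. All 3 kinds of position were denser in the windows.

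Relative to the base pairs available, however, the windows' peaks were less concentrated at gene ends. The zones within 2 kb of an end filled 27.95% of the windows, against 5.41% of the rest. The share of peaks over the share of base pairs was 1.40 (1.27 to 1.54) in the windows, against 3.49 (3.42 to 3.56) over the rest. In gene interiors the same ratio was 0.965, against 0.891, and outside genes it was 0.543, against 0.838. By window, the ratio near ends was highest on chromosome 5, at 1.72 (1.15 to 2.40), where 27.4% of peaks were near an end. It was lowest in the chromosome 10 windows, at 1.25 in each, with intervals of 0.978 to 1.54 and 0.983 to 1.53 that include 1, where 39.7% and 40% of peaks were near an end.

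**Figure D2:**
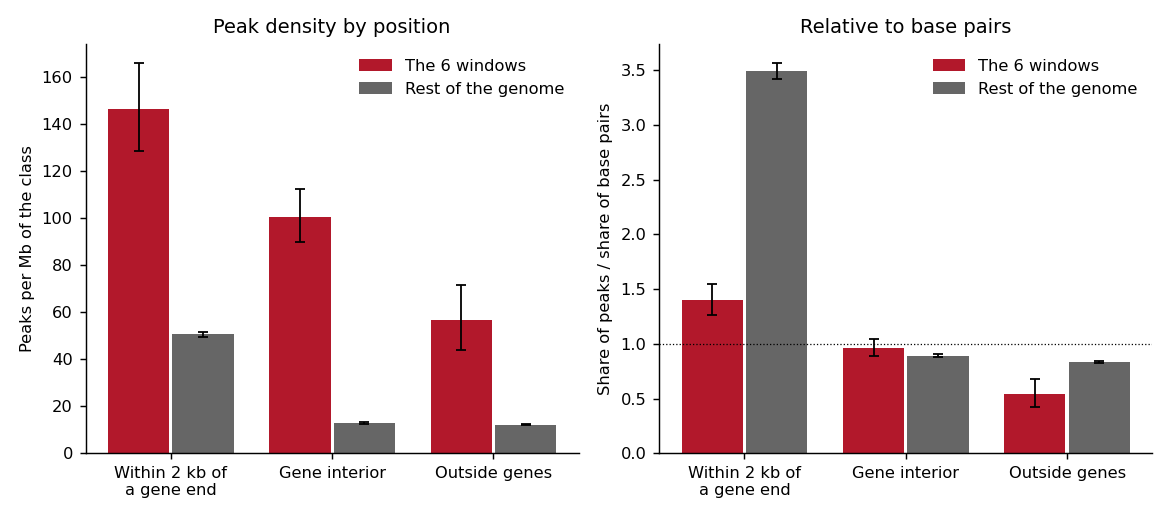
Left, peaks per Mb of each position class, with exact Poisson 95% intervals; right, share of peaks over share of base pairs, with exact 95% intervals, for the 6 windows (red) and the rest of the genome (grey). Near gene ends the windows have 146 peaks per Mb, against 50.6, while the ratio to base pairs is 1.40, against 3.49.

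Distal chromosome 4, from 140 Mb on, is another place where peaks crowd. Relative to base pairs, it differed from the windows mainly outside genes. It had 55.1 peaks per Mb, of which 59.8% were in protein-coding genes, against 81.4% in the windows. Such genes made up 53.4% of its base pairs, against 68.9% of the windows'. The ratio of peaks to base pairs in genes was 1.12 (1.06 to 1.18), against 1.18 (1.14 to 1.23) in the windows, with overlapping intervals. Near gene ends the windows had 146 peaks per Mb, against 77.7 there, but outside genes the values were 56.6 and 48.5, with overlapping intervals (44.1 to 71.5 in the windows, 43.4 to 53.9 on distal chromosome 4). The ratio of peaks to base pairs near gene ends was 1.40 in the windows and 1.41 on distal chromosome 4. Outside genes it was 0.543 (0.428 to 0.676) in the windows and 0.879 (0.804 to 0.955) on distal chromosome 4.

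Starts and far ends could be told apart for 195 of the 279 genes, none of them on chromosome 15. Of the 539 members on the other chromosomes, 99 (18.4%) lay within 2 kb of a start and 113 (21.0%) within 2 kb of a far end. Around starts there were 143 peaks per Mb in the windows, against 68.2 over the rest, and around far ends 163, against 35.0. The order of the zones thus differed: outside the windows the start was the denser zone by a wide margin, and inside them the intervals of starts (117 to 175) and far ends (135 to 196) overlapped.

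Of the zones compared, the one within 0.5 kb of a start had the smallest ratio of windows to other genes, though not the smallest difference. Within 0.5 kb of a start there were 226 peaks per kb per 1000 genes (164 to 303) in the windows, against 141 over the rest. Between 5 and 2 kb upstream of a start the values were 90.6 and 20.8. In the last 2 to 0.5 kb before a far end they were 236 (184 to 299) and 51.5, and within 0.5 kb of the far end 169 and 26.1. Neighbouring genes stand close in the windows, so a zone near one gene often held part of another.

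**Figure D3:**
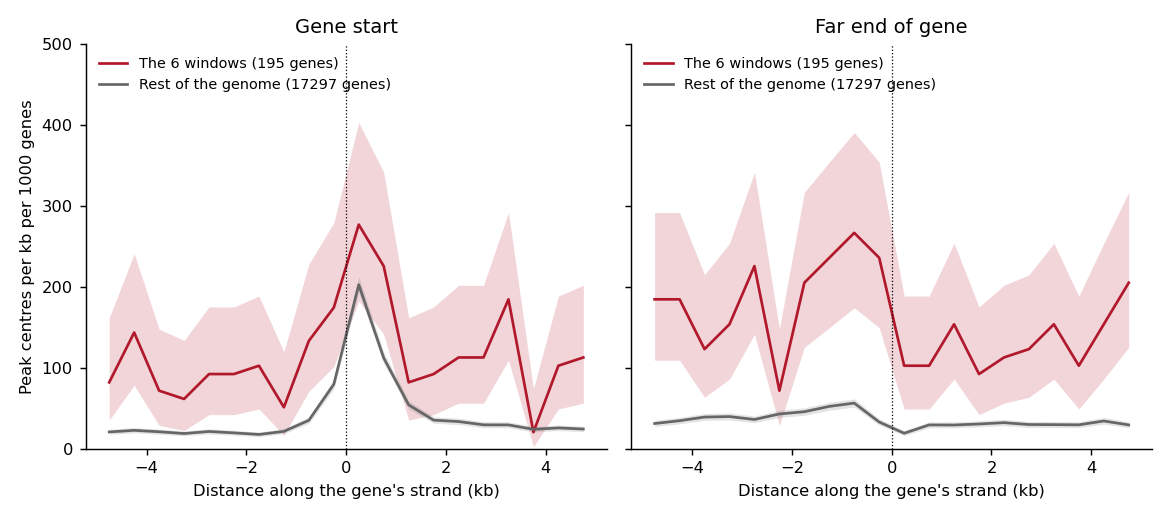
Peak centres per kb per 1000 genes against the distance along the gene's strand (kb) from the start (left) and from the far end (right), for 195 genes of the windows (red, with exact Poisson 95% intervals) and 17297 genes of the rest (grey). Within 0.5 kb of the start the windows have 226, against 141, and within 0.5 kb of the far end 169, against 26.1.

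Along gene bodies, peaks were less gathered at the first part in the windows than over the rest. Over the 150 window genes of at least 5 kb with a known strand, with or without a peak, the first 10% of the gene's length held 12.6% of 364 peaks (9.40 to 16.5), against 23.4% of 13762 peaks in 13262 genes of the rest. The last 10% held 15.9% (12.3 to 20.1), against 12.3%. The stretches of 10% between them each held from 4.95% to 12.4% in the windows. The lowest, at 4.95% (2.96 to 7.70), came right after the first 10%. For the first 10% itself, the interval includes an even share of 10%.

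Nearly all genes of the windows had a peak. Of 279 protein-coding genes, 245 (87.8%) had a peak in the span or within 2 kb, against 49.7% of other genes, with 50.2% over all genes as background. A peak within 2 kb of an end was found at 218 (78.1%, 72.8 to 82.8), against 34.0% and a background of 34.6%. For 27 genes all peaks were deeper in the body, and 34 genes had none. Among the 195 genes with a known strand, 51.8% had a peak at the start, against 26.4% of other genes, 59.0% had one at the far end, against 13.5%, and 31.3% had both, against 6.17%. Since the windows were picked for their peaks, these shares are given as a description.

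The larger share of genes with a peak was seen in each class of gene length under 50 kb. The windows' genes were shorter, with a median of 10.2 kb, against 17.4 kb for other genes. Under 5 kb, 73.0% of window genes had a peak, against 28.3% of other genes of that length. From 5 to 15 kb it was 91.8%, against 45.7%, and from 15 to 50 kb 95.3%, against 52.2%. Of the 10 window genes of 50 kb or more, 9 had a peak (90%, 55.5 to 99.75), an interval that includes the 71.5% found elsewhere. One peak often served several genes: 86 of the 245 end peaks (35.1%) lay within 2 kb of the ends of 2 or more genes, against 16.8% over the rest.

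On chromosome 10, the gene with most peaks was Sbno2, a transcriptional co-regulator gene of 49.1 kb. It held 12 peaks, 2 of them near its far end and 10 in the body, and the tallest had 32.0 normalized tags. Pip5k1c, a lipid kinase gene, followed with 8 peaks, and Nfic, a nuclear factor I gene, with 7. The tallest Nfic peak had 70.7 normalized tags, from 67.5 ChIP tags and 1.5 control tags. Sbno2 thus carried many low peaks, and Nfic 1 tall peak among low ones.

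The tallest peak of chromosome 10 covered nearly the whole of Sirt6 (chr10:81621886-81627712), with 110.5 tags (90.9 to 133) in the ChIP library and 8.5 in the control. The second, of 110.5 normalized tags (chr10:81967378-81970336), lay between genes, 9.23 kb from Gm19802, with 105.5 ChIP tags, 1.5 control tags and a fold of 48.1 over control. The third, in Apc2, a relative of the Apc tumour suppressor gene, had 109.0 normalized tags and was 4570 bp wide.

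The second chromosome 10 window changed character along its length. Up to the end of Ankrd24, a boundary chosen after the map had been seen, 39 genes and 110 peaks lay in 647.6 kb, or 170 peaks per Mb, and all 7 strong peaks were in protein-coding genes. Strong means here the top 10% of the list by normalized tags, at 50.8 or more. In the remaining 352.4 kb, which holds zinc finger and predicted genes, there were 20 peaks and 11 genes, or 56.8 peaks per Mb. All 3 strong peaks there lay outside protein-coding genes. The zinc finger genes Zfp781 (28.6 kb) and Zfp433 (17.2 kb) were the longest chromosome 10 genes with no peak, and Zfp781 lay in a gap of 87.9 kb between peaks.

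On chromosome 7 the peaks were spread over many genes, with none standing out. Ppp1r13l, which encodes an inhibitor of p53-family proteins, had 5 peaks, the tallest at 16.8 normalized tags. Relb, an NF-kappaB subunit gene, and Ppp1r37, a phosphatase regulator gene, had 4 each. The tallest peaks were in Nkpd1 (71.8 normalized tags, 0.527 kb from its far end), in Fbxo46, an F-box gene (67.0), and at the start of Bhmg1 (61.3). The cell adhesion genes Ceacam20 (25.8 kb) and Ceacam19 (12.3 kb) had no peak. Apoe, the apolipoprotein gene, had a peak at each end, the taller with 44.5 normalized tags and 42.5 ChIP tags, against 1.5 in the control; it was chosen after its values were seen.

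On chromosome 11, Bahcc1 had more peaks than any other gene of the windows, 17 in 59.4 kb. It encodes a chromatin protein with a BAH domain. Of its peaks, 15 lay deep in the body and 2 near the start, and 2 were strong, the taller with 77.5 normalized tags. Fasn, the fatty acid synthase gene, held 7 peaks, of which the tallest had 84.9 normalized tags and 81 ChIP tags, against 8.5 in the control. Aatk held 6, all in the body.

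The tallest chromosome 11 peak lay outside genes (chr11:120320270-120323659), 23.7 kb from the gamma actin gene Actg1, with 139.3 normalized tags. Another at chr11:120755912-120757880 lay 5.90 kb from Hmga1b, with 82.8. Nploc4, a cofactor gene of the p97 segregase and 57.9 kb long, had no peak, nor had the mitochondrial carrier gene Slc25a10. Nploc4 lay in a gap of 87.5 kb between peaks, to the right of the run over Bahcc1, where 19 peaks followed each other within 74.8 kb.

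Chromosome 15 held the tallest peaks. The tallest lay in the epiplakin gene Eppk1 (chr15:76102068-76112990), with 1114 normalized tags, 1063 ChIP tags (1000 to 1129) and 44 control tags. It was 10922 bp wide, its fold over control was 16.5, and it ranked 28th of 39972 peaks by tags. The next lay in the plectin gene Plec (chr15:76171261-76179914), with 653.2 normalized tags, 623.5 ChIP tags and 42.5 control tags, and ranked 46th. A second Plec peak (chr15:76180424-76184139) had 216.3 normalized tags. Eppk1 and Plec are nearby genes for large plakin proteins, which link the cytoskeleton to cell junctions.

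These 3 peaks held 48.1% of all tags in the chromosome 15 members and 12.4% of those in all 625. Their control tags, 20.5 to 44, were the highest beside strong members, whose others had at most 11. Tags in the control thus moved with tags in the ChIP library here, and their part in the height was not tested. Plec held 12 peaks in all, 4 of them strong and 11 deep in the body. Bop1, a ribosome biogenesis gene, and Mroh1 had 6 each. Puf60, a splicing factor gene, and Sharpin, a ubiquitin ligase adaptor gene, were the longest genes with no peak.

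On chromosome 5 peaks were many and low, and none was strong. The tallest lay in 4930519G04Rik, with 44.5 normalized tags. The next, in Ankrd13a, a ubiquitin-binding protein gene, had 44.0 normalized tags, from 42 ChIP tags, and the control stood at its floor of 0.5 tag. The third had 43.5 normalized tags and lay in the ubiquitin ligase gene Ube3b, which had the most peaks, 7, with 3 of them near its far end. Fam222a had 6 peaks, all in the body. Oasl1, an interferon-induced gene, was the only protein-coding gene of this window with no peak.

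Genes of every functional list that was looked at had peaks. Over all 279 genes of the windows, 87.8% had a peak and 78.1% one near an end, and the lists' counts are to be read against these. Of 32 transcription and chromatin genes, 29 had a peak, 24 of them near an end. Bahcc1 had 17 peaks, and Nfic and Zbtb7a had 7 each. Zbtb7a encodes a zinc finger repressor, and its tallest peak had 37.2 normalized tags. Strong peaks lay at 7 of the 32 genes, or 21.9%, against 14.0% of all 279 genes of the windows and a background of 5.53%. The interval of the list's share (9.28 to 39.97) includes 14.0%, so the list was not set apart from the windows' other genes.

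Lipid and energy genes had a peak in 19 of 22 cases, 17 of them near an end. Fasn had 7 peaks and Acacb, which encodes an acetyl-CoA carboxylase, had 5, all deep in its 104 kb body and none above 34.0 normalized tags. Oplah, of the glutathione cycle, had 4 and Pcyt2, of phospholipid synthesis, had 3. For signalling genes the count was 23 of 24, 19 near an end. The G protein genes Gng7, Gna15 and Gna11 had 5 peaks each, as had Ppp1r13l. In Gng7 all 5 lay in the body, and in Gna15 and Gna11 1 lay at the start and 1 at the far end.

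Cytoskeleton genes had a peak in 11 of 12 cases, 10 near an end. Plec had 12, the lamin gene Lmnb2 had 7, and Kctd10 and the myosin gene Myo1h had 5 each. The gene without a peak was Actg1. All 8 DNA repair genes had a peak, 6 near an end, with 3 each at the excision repair genes Ercc1 and Ercc2 and at Parp10, and 2 at the helicase gene Recql4.

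RNA and protein synthesis genes had a peak in 11 of 14 cases, each of them near an end. Bop1 and the RNA-binding protein gene Celf5 had 6, Mex3d had 4 and the polyadenylation factor gene Cpsf1 had 2. Of 4 immune and interferon genes, Relb had 4 peaks and Oasl2 had 1, while Oasl1 and Sharpin had none. The 164 window genes in no list had a peak in 143 cases and near an end in 130. With 4 to 32 genes a list, the intervals were wide and no list can be called apart from the others.

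Seen over the whole genome, windows with more genes had more peaks. Across 2711 windows of 1 Mb, peaks and protein-coding genes had a Pearson correlation of 0.629 and a Spearman correlation of 0.555, given as a description since neighbouring windows share their chromosome and all share 1 library. Without the 6 windows these were 0.612 and 0.552. For strong peaks the Spearman correlation with gene number was 0.0758. By peaks the 6 windows ranked 2nd, 3rd, 4th, 7th, 8th and 10th.

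Windows with equally many genes differed widely in peaks. In all, 52 windows had 40 or more genes, 5 of them members with 86 to 130 peaks. The other 47 had a median of 40 peaks (5 to 82). The chromosome 5 window had 84 peaks with 24 genes, against a median of 26 in the 157 other windows with 20 to 29 genes, of which the highest had 99. The median over all 2711 windows was 11.

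**Figure D4:**
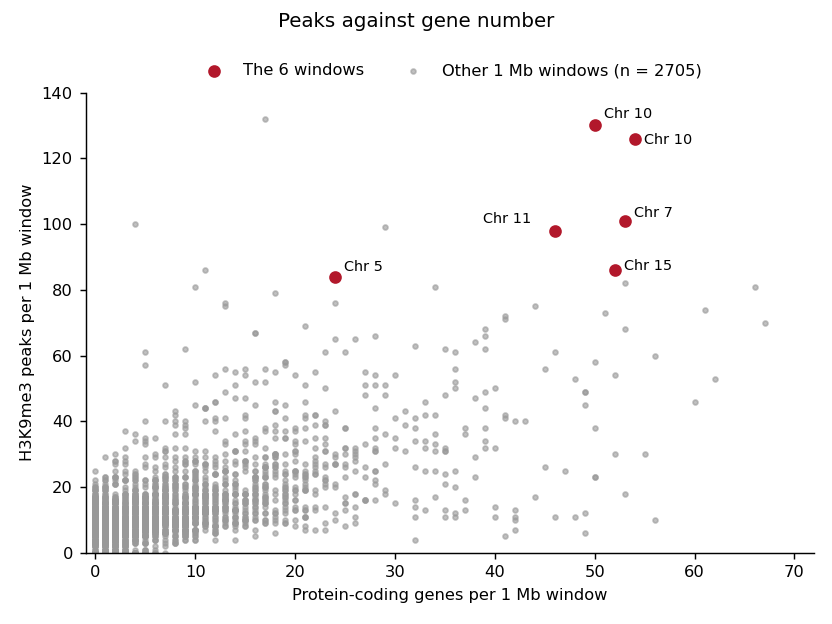
Peaks per 1 Mb window against protein-coding genes per window for 2711 windows, with the 6 described windows as red points and the others in grey. The 6 hold 84 to 130 peaks, while the 47 other windows with 40 or more genes hold 5 to 82.

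Members stood close together. The median gap between neighbouring peaks was 4.99 kb in the windows, against 29.3 kb over the rest, and 74.6% of gaps were within 10 kb, against 28.3%. The longest run with no gap above 10 kb had 29 peaks in 118.2 kb (chr10:81230314-81348473), and the next had 23 in 94.0 kb (chr10:80004094-80098073). On chromosome 5 the longest run had 6 peaks in 25.4 kb. The longest gap was 101.1 kb on chromosome 15, and no protein-coding gene lay wholly inside it.

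In tags and width the members were close to ordinary peaks of the list. The median was 16.8 normalized tags (15.7 to 17.3) in the windows and 17.3 over the rest, and the quartiles were 11 and 27.2, against 11.5 and 28.3. Median width was 773 bp (704 to 802), against 769 bp. The smallest width the list gives, 500 bp, was found for 33.8% of members and 31.9% of the rest. Members of 3 kb or more numbered 16, or 2.56% (1.47 to 4.12), against 1.14%. Of these, 7 were on chromosome 15, and chromosomes 7 and 5 had 0. Without the chromosome 15 window the share was 1.67%, with an interval (0.766 to 3.15) that includes 1.14%. The median fold over control was 12.3 in both, and 78.9% of members had a fold of at least 8, with 79.5% over all peaks as background.

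**Figure D5:**
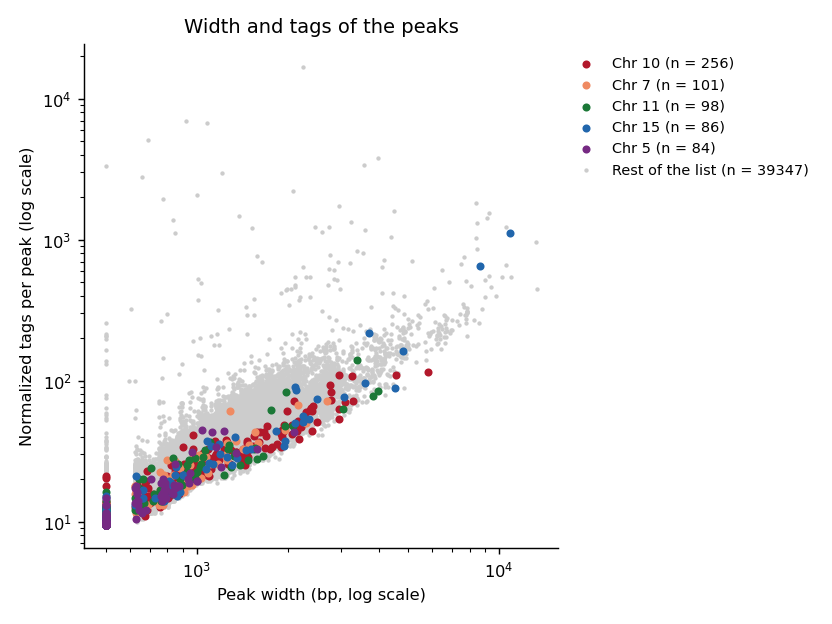
Normalized tags against width (bp) of every peak on log scales, with members coloured by chromosome and the rest in grey. Medians are 16.8 normalized tags and 773 bp for members, against 17.3 and 769 for the rest, and the 2 highest members, with 1114 and 653.2, are on chromosome 15.

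Strong peaks were a smaller share of members as a whole, though not in the chromosome 15 window. Of the 625, 43 were strong, or 6.88% (5.02 to 9.16), against 10.1% of the rest and a background of 10.1%. On distal chromosome 4 the share was 7.21% (5.61 to 9.09), close to that of the windows. Of the 43 strong members, 34 (79.1%, 64.0 to 90.0) were in protein-coding genes. This was 29.99% of strong peaks over the rest and 56.9% of those on distal chromosome 4. Among all members the share was 81.4%, and protein-coding genes filled 68.9% of the windows' base pairs. The interval of the strong members includes both values. Strong members numbered 11 (8.73%) and 10 (7.69%) in the chromosome 10 windows, 3 (2.97%) on chromosome 7, 6 (6.12%) on chromosome 11 and 0 on chromosome 5. On chromosome 15 they numbered 13, or 15.1%, with an interval (8.30 to 24.5) that includes the background. So do the intervals of the chromosome 10 windows (4.44 to 15.1 and 3.75 to 13.7) and of chromosome 11 (2.28 to 12.9). Those of chromosome 7 (0.617 to 8.44) and chromosome 5 (0 to 4.30) lay below it. By number of strong peaks, the chromosome 10 windows ranked 11th and 15th of 2711 windows of 1 Mb. Chromosome 15 ranked 6th, chromosome 11 41st, chromosome 7 243rd and chromosome 5 1838th. Over all windows, strong members were near 39 of the 279 genes (14.0%), against 5.43% of other genes and a background of 5.53%.

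Among members, tags and width moved together, with a Spearman correlation of 0.946, against 0.933 over the rest. Tags per kb of peak had a median of 20.9, against 22.0, and an upper quartile of 23.9, against 27.0. By window the median ran from 14.1 normalized tags on chromosome 5 to 20.5 in the second chromosome 10 window, and the median width from 633.5 bp to 870.5 bp in the same 2 windows.

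Summed over members, the control library held 1.57 tags per kb of peak, against 1.97 over the rest, where the ChIP library held 24.8 and 29.5 tags per kb. By window the control ran from 1.24 tags per kb on chromosome 5 to 2.33 on chromosome 15, the only window above the rest. The control stood at its floor of 0.5 tag in 43.2% of members and 43.0% of the rest. Since the caller used this control to accept peaks, its level in peaks says nothing of the windows outside them.

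Promoters of the windows held a median of 20 CG, against 13 over the rest. Of 251 promoters of 195 genes, each 300 bases long, 28.3% (22.8 to 34.3) were touched by a peak, against 16.1% of 21012 others. In the windows the median was 19 CG in touched promoters and 20 in untouched ones. Over the rest it was 19 in touched promoters and 10 in untouched ones. GC content was 61.3% and 61.5% in the windows, and 61.0% and 54.7% over the rest. CG content was thus high across the windows' promoters with and without a peak, and its part in the number of peaks was not tested.

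Of 18 microRNA hairpins in the windows, 2 were touched by a peak, where peaks covered 10.3% of the windows' base pairs. The share over all hairpins of the genome was not counted, so the 2 are named as a description only. They were Mir3057, inside a peak of 50.8 normalized tags in Apba3, and Mir330, at a peak of 14.1 normalized tags.

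At the window edges, the peaks on both sides varied widely in height. The outermost members lay 0.875 to 51.0 kb inside an edge and had 9.43 to 161.3 normalized tags. The first peaks beyond lay 0.634 to 74.6 kb outside and had 9.43 to 63.4. The highest of the outermost members was in Fam83h, at the left edge of the chromosome 15 window, and the peak nearest to an edge from outside lay in Gm10777 on chromosome 10, with 9.43 normalized tags.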

How the data were processed

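One H3K9me3 ChIP library and 1 control library were made from the same sorted cells, and the ChIP library has a peak list. Per the submitters' processing notes, the tools were Bowtie2 2.2.8 and HOMER 4.10.1, and GRCm38 and mm10 are named as builds. The list of options set for peak calling is not given in the sources used here, nor is the library total. For each peak the authors deposited a normalized tag count, which is a coverage signal scaled to a fixed library total. Control tags, per the file headers, are likewise a coverage signal. The deposited score ranks peaks within the list and was used only to filter. The deposited fold is the ratio of scaled ChIP tags to control tags, and none was under 4. The deposited p-value of a peak came from the caller and was at most 8.32e-05. The score, fold and p-value are the authors' own values per peak.

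Low normalized values fell on steps of 0.524, which is 0.5 tag, and 100% of values below 100 lay within 0.1 step of a whole one, so tags were recovered. The depth of the control library was 0.684 times that of the ChIP library. The median member rested on 16.0 tags, so a single peak is known to a wide Poisson interval.

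Gene spans came from a RefSeq table of GRCm38.p6, the build of mm10. Of 49997 genes, 348 with scaffold coordinates and others not on the chromosomes were left out, which left 49595, 21774 of them protein-coding. The table has no strand, exons or repeats. Strand came from a RefSeq promoter table of the same build, matched by gene identifier, for 17492 protein-coding genes. Genes were assigned to a window by midpoint. Peaks on scaffolds, 147 in all, entered no position result. Exon, intron and repeat classes were not analysed here.

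With 1 library a group and windows chosen for their peaks, no test was made. Shares have exact Clopper-Pearson and densities exact Poisson intervals at 95%, and medians have order-statistic intervals, covering counting error alone. The members and the gene lists were chosen with earlier results of these data known. Named genes were, for each chromosome, the 3 with most peaks, the 3 tallest peaks, the 2 longest genes without a peak, the outermost peaks at each edge, and, for each gene list, the 4 genes with the highest peak numbers where it had as many. One gene that the rule took is not reported here. Names outside that rule, such as Apoe, were chosen after their values were seen. Counting was tested on simulated data. Python 3.11, numpy 2.4.6, scipy 1.17.1 and pandas 2.3.3 were used.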

Additional observations from a re-analysis of the deposited data

How the results depend on the processing

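With 1 ChIP library and 1 control library, no test was made and every value carries counting error alone. Exons, repeats and sequence outside the promoter table were not used here, and the windows were picked for their peaks. No paired analysis was possible because each group has 1 library and no test gave a result.

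Of 97 alternative values, 70 stayed within the interval of the reported value or within 1.5 times a count, and 27 moved. Each was counted in the windows alone, and no share over all genes or all peaks was recounted beside it. The backgrounds given above hold for the main setting, so these values do not compare the windows with the rest. With a fold of at least 8, 67.7% of window genes had an end peak. With a score at or above the list median of 11, there were 306 members, 23.2% near a start and 51.6% of genes with an end peak, and the medians were 19.9 normalized tags and 827 bp. With peaks within 5 kb merged, there were 312 members, of which 76.3% were in protein-coding genes. Their tags were summed, and 26.9% reached the cut for strong of the unmerged list, 50.8 normalized tags. That cut is not the top 10% of merged peaks, so this share cannot be set against the background. End peaks then stood at 48.8% of genes, with medians of 27.2 normalized tags and 1336 bp. Without chromosome 10 there were 369 members, with medians of 15.2 normalized tags and 670 bp. With 1 kb as the distance to a gene end, 26.7% of members were near an end and 13.2% near a start, 58.8% of genes had an end peak, and the ratio to base pairs was 1.71. With 5 kb these were 63.8%, 34.3%, 94.3% and 1.19. With all genes of the table, 44.8% of members were near an end and 71.0% of genes had an end peak. With strong as the top 5% or the top 25%, 3.36% and 23.7% of members were strong. The cause of these moves was not tested, beyond the fewer peaks, longer merged peaks or other distance that each alternative uses. Counting overlap with a window in place of the midpoint moved none of the values. The split of the second chromosome 10 window at Ankrd24 and the share of tags in the 3 tallest peaks were added after the data were seen.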
